A study of Mus musculus with 6 samples.

Results

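The NADPH oxidase subunits described here are the products of Cybb, Cyba, Ncf1, Ncf4, Rac1, Rac2, Nox4, Duox1 and Duox2. These 9 genes, of 20352 with probe sets annotated to exactly 1 gene, hold 143 of the 212097 such probe sets. They were chosen by gene name, by a rule that uses no measured value, though with earlier results of these data known. Microarrays read the RNA of bone marrow haematopoietic stem cells in mice, in a gate the labels call KLSCD34-, that is Kit+, without lineage markers, Sca-1+ and CD34-. The groups were 3 beta-catenin floxed, vav-Cre positive samples, called floxed arrays, and 3 control arrays. Vav-Cre recombines DNA in blood-forming cells of all lineages and is not specific to stem cells. The control genotype (whether floxed alleles or Cre were carried), strain, age and the number of animals per array are not given in the sources used here, so p-values reflect only how far these samples spread, and that spread can be technical.

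NADPH oxidases move electrons from NADPH across a membrane to oxygen and so make superoxide or hydrogen peroxide. In the phagocyte enzyme, Cybb (gp91phox, also called Nox2) is the catalytic subunit and Cyba (p22phox) its membrane partner. The cytosolic proteins Ncf1 (p47phox) and Ncf4 (p40phox) and a Rac GTPase join them on activation. Nox4 also pairs with Cyba but is active without the cytosolic proteins, and Duox1 and Duox2 are calcium-regulated oxidases known from thyroid and airway epithelium. Reactive oxygen is kept low in quiescent stem cells, and oxidative stress stands in the series' title. The comparison therefore asks whether the transcripts of these enzymes differ between floxed and control arrays.

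No oxidase subunit gene passed the test between floxed and control arrays. By limma with Benjamini-Hochberg adjustment over 14586 genes, 0 of the 9 passed at 0.05 (smallest adjusted p = 0.999), and 0% of all genes were called. An unadjusted p under 0.05 was found for 0 of the 9 and for 3.70% of all genes. The arrays of both groups overlapped for all 9 genes, where groups did not overlap for 8.44% of all genes. The log2 fold change (floxed minus control) was below 0 for 6 of the 9 and above it for 3, with its median at −0.08, and 45.8% of all genes were lower, with a median of 0.02 over all genes. The 95% confidence interval reached less than 0.5 log2 to either side of the gene's own estimate for 8 of the 9 genes, Cybb being the exception. For 6 of the 9, all 3 floxed arrays lay between the lowest and the highest control, a pattern seen in 38.5% of all genes.

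**Figure D1:**
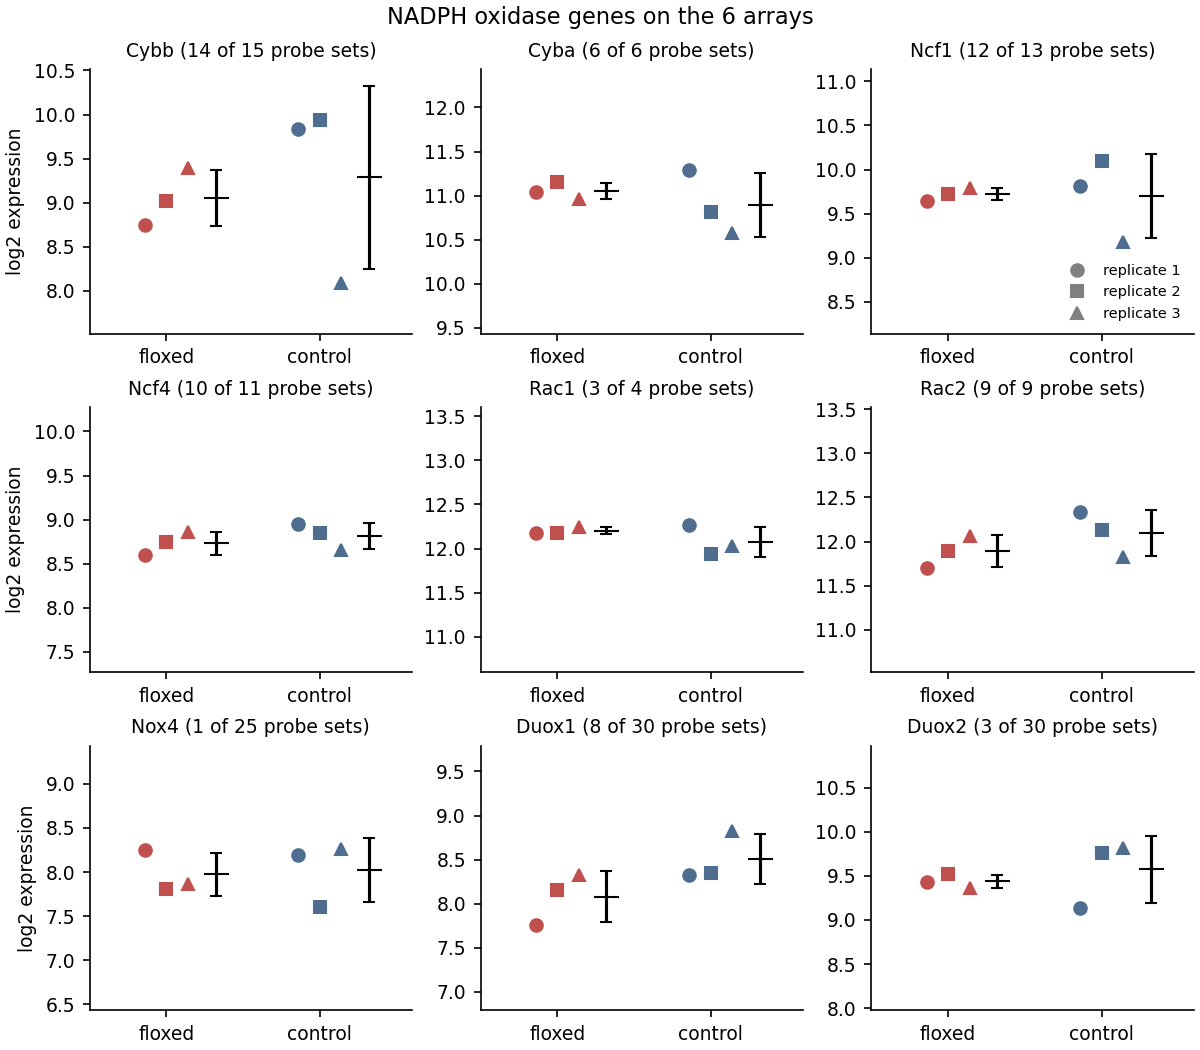
Log2 expression of each NADPH oxidase gene (median of its kept probe sets, counted in the panel title) on the floxed arrays (left) and the control arrays (right); each marker is 1 array, and the bar gives mean and SD of 3. The vertical span is the same in all panels, each on its own level; the groups overlap in every panel, and control replicate 3 stands lowest of all for Cybb, Cyba and Ncf1 and highest for Nox4, Duox1 and Duox2.

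The genes differed in how many of their probe sets carry signal. A probe set was kept if its 6-array mean was at or above the median of such means, 7.60 on the log2 scale. Of the 143 probe sets of the 9 genes, 66 were kept. The phagocyte genes were nearly complete, with 14 of 15 probe sets kept for Cybb, 6 of 6 for Cyba, 12 of 13 for Ncf1, 10 of 11 for Ncf4 and 9 of 9 for Rac2. Rac1 had 3 of 4. Only 1 of 25 probe sets of Nox4, 8 of 30 of Duox1 and 3 of 30 of Duox2 were kept. Among 1206 probe sets of olfactory receptor genes, taken as a list of largely silent genes, 0.829% were kept. No detection calls were used, so no gene is called absent, and the gene values of Nox4, Duox1 and Duox2 rest on a minority of their probe sets.

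The catalytic subunit gene Cybb had the widest spread of the 9. Its log2 values were 8.75, 9.02 and 9.39 on floxed replicates 1 to 3, against 9.84, 9.94 and 8.09 on control replicates 1 to 3. Control replicates 1 and 2 were thus the highest of all arrays and control replicate 3 the lowest, with every floxed array between them. The floxed mean was 9.06 ± 0.32 (SD, n = 3) and the control mean 9.29 ± 1.04 (SD, n = 3). The control SD was larger than that of 99.7% of genes and the floxed SD larger than that of 92.9%. The log2 fold change was −0.23 (SE 0.41, 95% confidence interval −1.13 to 0.66, limma adjusted p = 0.999), and the exact permutation test, two-sided, gave p = 0.8, where 3 against 3 arrays cannot go below 0.1. This value moved most when 1 control array was left out. Without control replicate 3 the log2 fold change was −0.83 (limma adjusted p = 0.998), and without control replicates 1 or 2 it was 0.04 or 0.09 (limma adjusted p = 0.969 and 0.9995). Without floxed replicates 1, 2 or 3 it was −0.08, −0.22 or −0.40.

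Control replicate 3 was the lowest array on most Cybb probe sets, while the order of the other arrays varied. Of its 14 kept probe sets, 12 were lowest on control replicate 3, which was the lowest array for 34.1% of all kept probe sets. The difference between groups ran from −0.54 to 0.00 log2 over the 14, and 13 were lower in floxed arrays. These probe sets read one transcript from the same 6 RNA samples and do not replicate each other. None passed in limma over 120788 probe sets (smallest adjusted p = 0.975, with 0.00414% of all probe sets called), and 0 had an unadjusted p under 0.05, against 4.35% of all. Over the 9 genes, 49 of the 66 kept probe sets were lower in floxed arrays, as were 41.2% of all, and the groups did not overlap on 6 of the 66, against 9.45% of all. The probe sets of Cybb were not called as moving apart from each other in limma's diffSplice test (F test adjusted p = 1, Simes adjusted p = 0.994), nor were those of the other 7 genes with more than 1 kept probe set, where 0.0169% of all genes were called by the F test and 0.0338% by the Simes test.

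**Figure D2:**
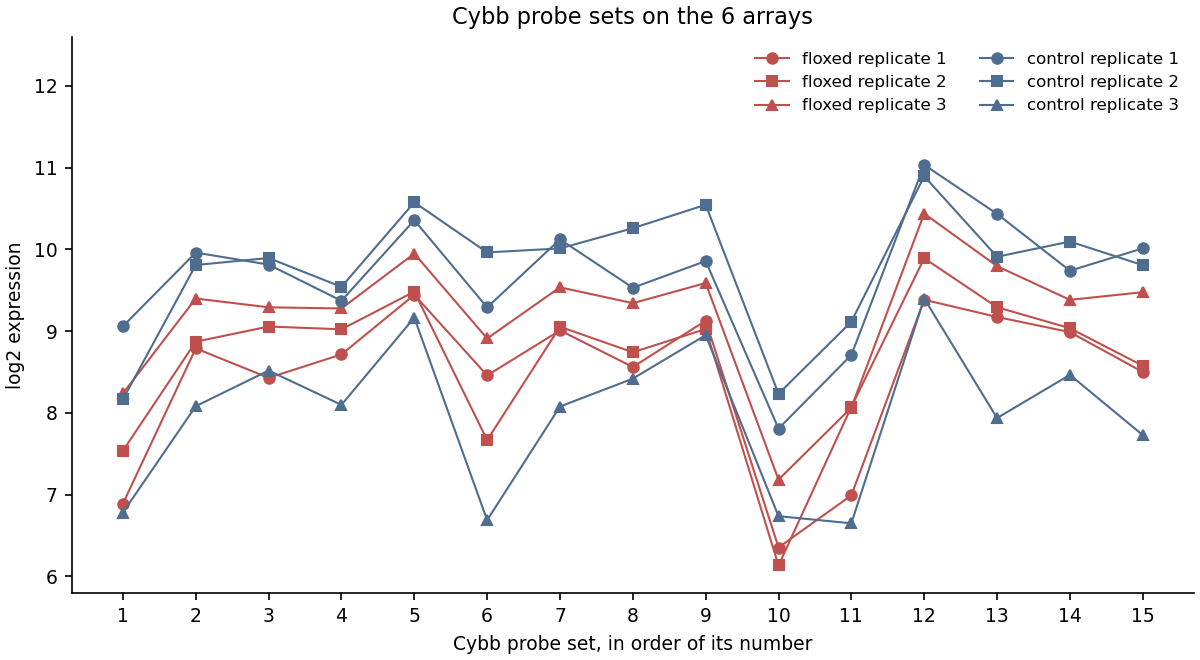
Log2 expression (vertical axis) of the 15 Cybb probe sets in order of their number (horizontal axis) on the 3 floxed arrays (red) and 3 control arrays (blue), 1 line per array. Control replicates 1 and 2 run above the floxed arrays on nearly every probe set, and control replicate 3 below them on most. The tenth probe set is the 1 of 15 whose mean lay under the filter.

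Cyba, whose product stabilises both Cybb and Nox4 in the membrane, lay on the higher side. Its log2 values were 11.04, 11.15 and 10.96 on the floxed arrays, against 11.29, 10.81 and 10.58 on the controls. All 3 floxed arrays again lay between the control extremes, and control replicate 3 was the lowest array. The means were 11.05 ± 0.10 in floxed arrays and 10.89 ± 0.36 in controls (SD, n = 3 each), with a log2 fold change of 0.16 (SE 0.17, 95% confidence interval −0.21 to 0.53, limma adjusted p = 0.999). All 6 Cyba probe sets were higher in floxed arrays, by 0.07 to 0.27 log2, and all 6 were lowest on control replicate 3. Without control replicate 3 the Cyba difference was 0.00 log2, and without control replicate 1 it was 0.36 (limma adjusted p = 0.195). Cybb and Cyba, whose proteins form 1 complex, thus had differences of opposite sign with all 6 arrays, neither of which passed.

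The genes of the cytosolic subunits, Ncf1 and Ncf4, had differences close to 0. Ncf1 had log2 values of 9.65, 9.72 and 9.79 on the floxed arrays, against 9.82, 10.10 and 9.18 on the controls. The floxed arrays spanned 0.14 log2 and the controls 0.92, and control replicate 3 was lowest. The log2 fold change of Ncf1 was 0.02 (SE 0.21, 95% confidence interval −0.44 to 0.48). Its sign was not stable, at −0.24 without control replicate 3 and 0.22 without control replicate 2. Of its 12 kept probe sets, 9 were lower and 3 higher in floxed arrays, between −0.41 and 0.16 log2. On 10 of the 12, control replicate 3 was the lowest array.

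Ncf4, which binds a phosphoinositide of the phagosome membrane, varied least with the array among the phagocyte genes. It had 8.60, 8.75 and 8.86 on the floxed arrays, against 8.95, 8.84 and 8.66 on the controls. Here floxed replicate 1, not control replicate 3, was the lowest array. The log2 fold change was −0.08 (SE 0.16, 95% confidence interval −0.43 to 0.26, limma adjusted p = 0.999). Of the 10 kept probe sets of Ncf4, 5 were lower and 5 higher in floxed arrays, between −0.24 and 0.31 log2.

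The Rac GTPases switch the assembled oxidase on and also steer the cytoskeleton; in mice, Rac1 and Rac2 are known for roles in the homing and retention of blood stem cells. Rac2, the form restricted to blood cells, had log2 values of 11.70, 11.90 and 12.07 on the floxed arrays, against 12.34, 12.13 and 11.82 on the controls. The highest array was control replicate 1 and the lowest floxed replicate 1. The means were 11.89 ± 0.18 in floxed arrays and 12.10 ± 0.26 in controls (SD, n = 3 each), with a log2 fold change of −0.21 (SE 0.14, 95% confidence interval −0.52 to 0.11, limma adjusted p = 0.999). All 9 Rac2 probe sets were lower in floxed arrays, by differences of −0.22 to −0.04 log2. The fold change kept its sign under all 15 processing alternatives, from −0.35 without control replicate 3 to −0.09 without control replicate 1, and passed in none (smallest limma adjusted p = 0.196).

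Rac1, the form found in most tissues, was the steadiest of the 9 on the floxed arrays. It had 12.18, 12.18 and 12.25 on the floxed arrays, against 12.26, 11.94 and 12.03 on the controls. The floxed arrays spanned 0.07 log2 and lay inside the control range of 0.33. The log2 fold change was 0.12 (SE 0.11, 95% confidence interval −0.11 to 0.36, limma adjusted p = 0.999). The 3 kept probe sets of Rac1 disagreed in sign, between −0.15 and 0.19 log2, and taking their mean instead of their median gave a difference of −0.00085, so its direction depends on that choice.

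**Figure D3:**
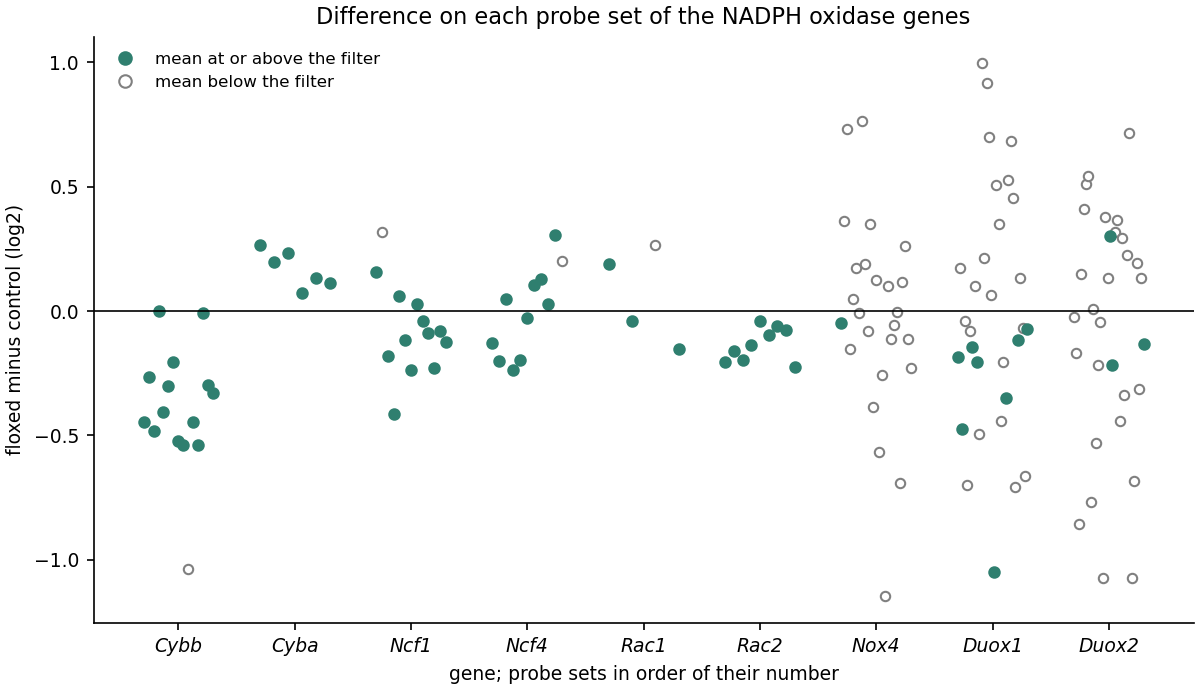
Difference between the floxed and control means (vertical axis, log2) on each of the 143 probe sets, by gene and in order of probe-set number; filled points have a mean at or above the filter, open points below it. All Rac2 points lie under 0 and all Cyba points above it, while the open points of Nox4, Duox1 and Duox2 scatter to both sides, from −1.15 to 0.99.

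Nox4 makes hydrogen peroxide without need of the cytosolic subunits. Its 1 kept probe set had 8.25, 7.80 and 7.86 on the floxed arrays, against 8.20, 7.60 and 8.27 on the controls, with a log2 fold change of −0.05 (SE 0.23, 95% confidence interval −0.54 to 0.45). With all 25 probe sets and no filter the difference was −0.04, and 14 of the 25 were lower and 11 higher in floxed arrays. The groups overlapped, and both differences were far smaller than the SE of the first.

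The dual oxidase genes Duox1 and Duox2 lie beside their maturation factor genes in the RefSeq order Duox2, Duoxa2, Duoxa1, Duox1 on mouse chromosome 2. Duox1 had the lowest p of the 9 genes. Its log2 values were 7.76, 8.16 and 8.33 on the floxed arrays, against 8.33, 8.35 and 8.83 on the controls. The third floxed array and the first control array differed by less than 0.01 log2, which is where the groups met. The means were 8.08 ± 0.29 in floxed arrays and 8.50 ± 0.28 in controls (SD, n = 3 each), with a log2 fold change of −0.42 (SE 0.21, 95% confidence interval −0.88 to 0.04, unadjusted p = 0.0703 and adjusted p = 0.999 in limma). It ranked 811th of 14586 genes by p, and the exact permutation p was 0.2. Without control replicate 3 the difference was −0.26, as it was without floxed replicate 1 (limma adjusted p = 0.998 and 0.9998).

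All 8 kept probe sets of Duox1 were lower in floxed arrays, by differences of −1.05 to −0.07 log2. The sixteenth in number, 10475472, was the 1 probe set of the 66 with an unadjusted p under 0.05 (0.0239, limma adjusted p = 0.975), at 8.04, 8.71 and 8.43 on the floxed arrays, against 8.81, 8.97 and 10.55 on the controls. The third control array stood far above the other 5 on that probe set. Over all 30 probe sets, 17 were lower and 13 higher, and without the filter the Duox1 difference was −0.08 log2. The difference of Duox1 thus rests on the 8 brighter probe sets, of which 6 were highest on control replicate 3.

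Duox2 had 9.43, 9.52 and 9.37 on the floxed arrays, against 9.14, 9.76 and 9.82 on the controls. The floxed arrays lay close together inside the control range. The log2 fold change was −0.13 (SE 0.19, 95% confidence interval −0.54 to 0.27), and without control replicate 3 it was 0.0013. Of its 30 probe sets, 15 were lower and 15 higher in floxed arrays.

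**Figure D4:**
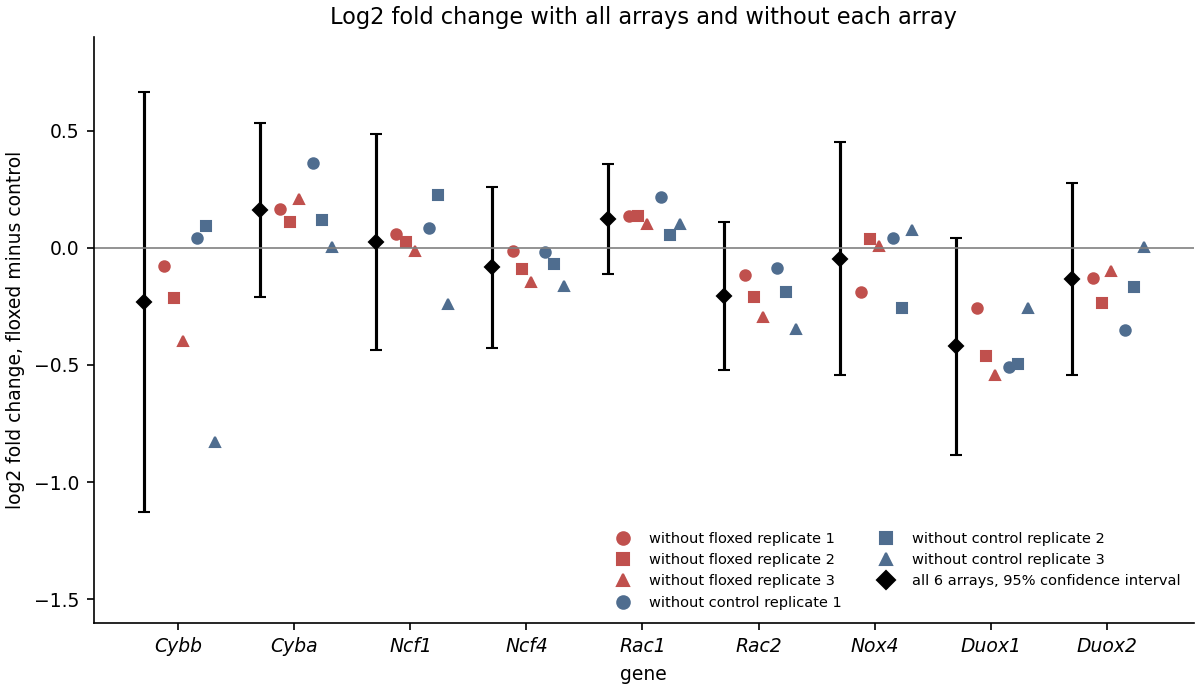
Log2 fold change, floxed minus control (vertical axis), of each gene with all 6 arrays (black, with the 95% confidence interval) and without each array in turn (red for a floxed array left out, blue for a control array left out; the marker shape gives the replicate). Every interval crosses 0, and the value of Cybb drops to −0.83 once control replicate 3 is left out.

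Seen by array rather than by group, 3 of the 5 phagocyte genes had the same lowest array. Cybb, Cyba and Ncf1 were lowest on control replicate 3, which was the lowest array for 34.7% of all genes. Ncf4 and Rac2 were lowest on floxed replicate 1. Nox4, Duox1 and Duox2 were highest on control replicate 3, as were 18.5% of all genes. Control replicate 3 was the lowest array on 12 of 14 kept probe sets of Cybb, 6 of 6 of Cyba, 10 of 12 of Ncf1 and 6 of 10 of Ncf4, but on 1 of 9 of Rac2, against 34.1% of all kept probe sets. This array also had the lowest mean correlation with the other 5 (0.915 across genes, against 0.932 to 0.954 for the rest). Its median over all probe sets was the lowest as well, at 7.56 log2, against 7.62 to 7.65 on the other arrays. The control SD was the larger of the 2 groups' SDs for 8 of the 9 genes and for 73.6% of all genes.

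Markers of mature blood cells moved over the arrays as well. The granulocyte list, of which 14 of 15 genes were tested, averaged 9.28, 9.33 and 9.91 log2 on the floxed arrays, against 10.09, 10.17 and 9.20 on the controls. The 6 arrays stood in the same order for this list as for Cybb: control replicate 3 lowest, then floxed replicates 1, 2 and 3, then control replicates 1 and 2. The B cell list (9 of 10 tested) averaged 8.59, 8.69 and 9.16 log2 on the floxed arrays, against 9.60, 9.02 and 7.96 on the controls. The monocyte and macrophage list (10 of 12 tested) had the same array order as Cybb too. It spanned less than the granulocyte list, at 8.70, 8.72 and 8.90 against 8.93, 8.96 and 8.59. Control replicate 3 was the lowest array on all 3 lists. It was also the lowest on the stem cell list, at 9.68 against 9.72 to 10.01 on the other arrays. Lists that are not cell markers, described below, were lowest there too: Rac regulators (9.60), upstream kinases (9.85) and transcription factors (9.49). The list of oxidase partners was highest on control replicate 3 (9.18). The T and NK cell list was lowest on floxed replicate 1 (8.33, against 8.61 on control replicate 3). The erythroid and megakaryocyte list was lowest on floxed replicate 2 (9.70, against 9.92 on control replicate 3). The lineage-negative part of the sorting gate is meant to remove granulocytes, monocytes, macrophages and B cells. Phagocytes and B cells both express Cybb and its partners, and in sorted bulk RNA fewer such cells and less RNA per cell cannot be told apart. The part of these markers, or of a difference between whole arrays, in the Cybb values was not tested.

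Between groups, 11 of the 14 granulocyte genes, 7 of 10 monocyte and macrophage genes and 5 of 9 B cell genes were lower in floxed arrays, with median log2 fold changes of −0.29, −0.01 and −0.07. None passed. The granule protein gene Ngp had the highest mean and the smallest p of the granulocyte list, at 10.97 ± 0.44 in floxed arrays and 11.85 ± 0.59 in controls (SD, n = 3 each; log2 fold change −0.88, limma adjusted p = 0.999). Lyz2 (lysozyme, −0.01) was the brightest monocyte gene and Ly6c2 (−0.69) had the smallest p there. Among B cell genes these were Cd79b (−0.07), a chain of the B cell receptor complex, and Cd22 (−0.31). The stem cell list, with 10 of 12 genes tested, had 7 higher and 3 lower (median 0.07); Kit, the receptor used in the sort, was at 11.73 ± 0.11 in floxed arrays and 11.84 ± 0.06 in controls (SD, n = 3 each), and Ctnnal1 had 0.31. The T and NK cell list had 5 of 6 tested genes lower (median −0.14; Nkg7 0.07, Cd4 −0.63). Of the erythroid and megakaryocyte list, 8 of 9 were lower (median −0.16; Car1 −0.14, Epor −0.48). No member of any of these lists passed.

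**Figure D5:**
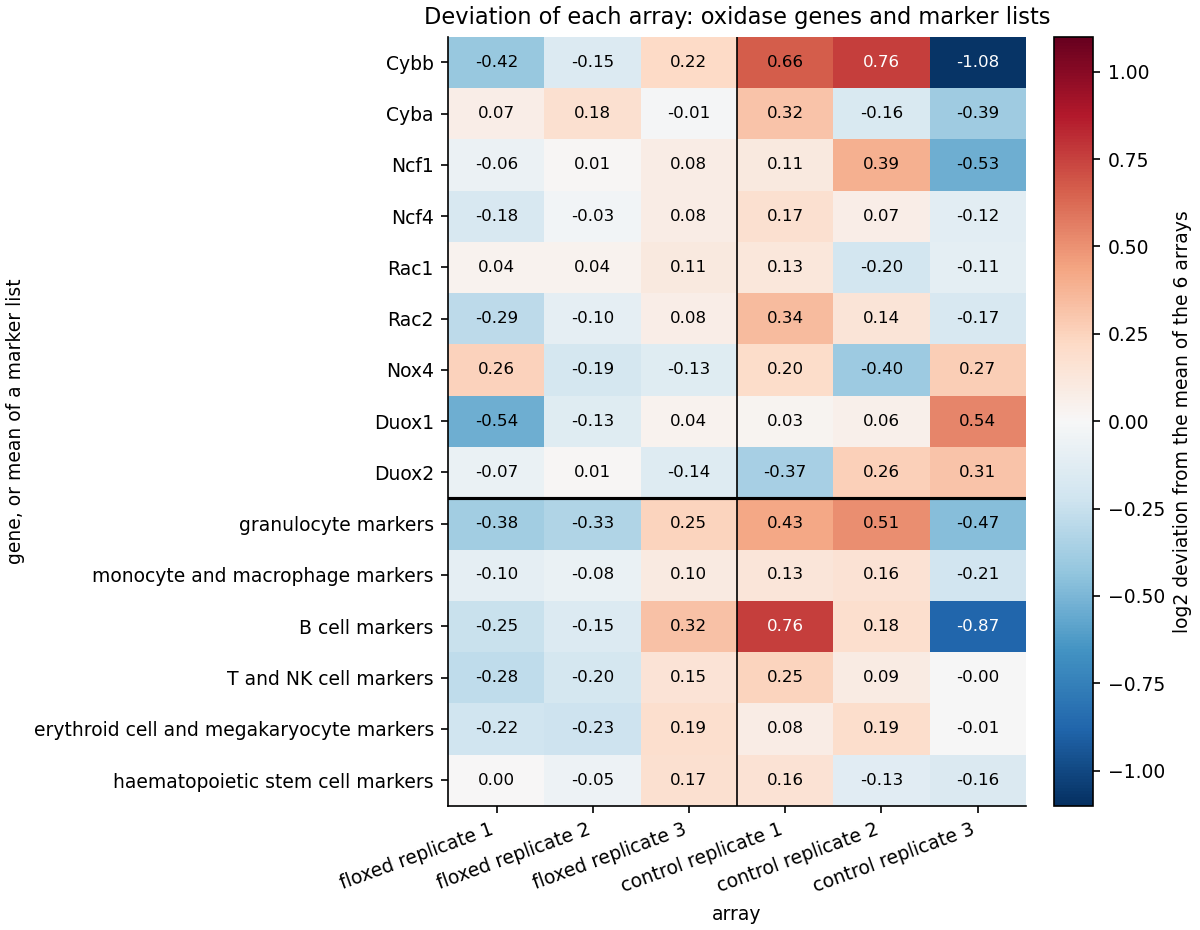
Deviation of each array (columns) from the mean of the 6 arrays, in log2, for each oxidase gene (upper rows) and for the mean of each marker list (lower rows); red is above and blue below the mean. Control replicate 3 is at −1.08 for Cybb, −0.87 for the B cell markers and −0.47 for the granulocyte markers.

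The genes whose profile over the 6 arrays lay nearest to that of Cybb were C3, Cd74 and Hvcn1. Nearness was the root mean square difference of the log2 deviations over 6 arrays, among 8878 genes with at least 4 kept probe sets. It was 0.11 for C3, a complement component, 0.17 for Cd74, the invariant chain of class II antigen presentation, and 0.20 for Hvcn1, with a median of 0.61 over all candidates. Hvcn1 encodes the voltage-gated proton channel that balances the charge moved by the phagocyte oxidase. Its log2 values were 8.38, 8.86 and 9.08 on the floxed arrays, against 9.43, 9.32 and 8.12 on the controls. For Duox1 the nearest were Tg (0.09), which encodes thyroglobulin, Gad1 (0.11) and Acsbg1 (0.12), with a median of 0.39 over all candidates. These were dim: Tg ran from 7.81 to 8.76 log2, Gad1 from 7.66 to 8.52 and Acsbg1 from 8.11 to 9.10, with the filter at 7.60. Both rankings describe these 6 arrays alone.

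Sequence at the transcription starts is shown for the 3 genes that were lowest on control replicate 3, a choice made from their values. PU.1, a factor known to drive phagocyte oxidase genes in human myeloid cells, recognises a core of GAGGAA. Whether PU.1 has any part in the values of that array was not tested. RefSeq promoters of the build GRCm38.p6 were matched for 6 of the 9 genes (Cybb, Cyba, Ncf1, Nox4, Duox1 and Duox2). Each line runs 5′ to 3′ on the gene's strand from 100 bases before to 30 bases after the start, with matches to GAGGAA or CCAAT, on either strand, in capitals.
Cybb, chrX:9469295-9469424, minus strand: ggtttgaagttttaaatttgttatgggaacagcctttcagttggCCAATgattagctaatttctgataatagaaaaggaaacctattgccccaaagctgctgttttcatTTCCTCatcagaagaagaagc
Cyba, chr8:122432911-122433040, minus strand: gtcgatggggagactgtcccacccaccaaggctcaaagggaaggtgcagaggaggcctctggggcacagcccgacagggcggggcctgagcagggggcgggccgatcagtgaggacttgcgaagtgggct
Ncf1, chr5:134229596-134229725, minus strand: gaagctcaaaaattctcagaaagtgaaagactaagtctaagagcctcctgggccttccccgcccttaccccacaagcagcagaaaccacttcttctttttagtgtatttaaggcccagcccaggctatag
The Cybb window holds CCAAT at position −56 and GAGGAA, read on the other strand as TTCCTC, from position 10. The windows of the other 5 genes hold neither set of letters. Of 32851 promoter windows of the same length in the table, 13.1% hold GAGGAA and 21.7% hold CCAAT on either strand. A match is a description of the letters and says nothing of binding in these cells.

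Genes that act with the oxidase were read from 4 lists. The groups did not overlap for 6 of their 41 tested genes, against 8.44% of all genes; Hoxa9, Vav3, Pik3cg, Prkcd and Duoxa2 were above the controls on all floxed arrays and Prex2, a Rac exchange factor, below them. Of 10 transcription factors of phagocyte oxidase genes, 8 were tested, 5 were higher and 3 lower in floxed arrays (median log2 fold change 0.07), and none passed. Hoxa9, a homeobox factor of stem and myeloid cells, had 10.52 ± 0.07 in floxed arrays and 10.15 ± 0.17 in controls (SD, n = 3 each; log2 fold change 0.37, limma adjusted p = 0.999). Irf1 had 0.20 and Cebpe −0.20. Spi1, which encodes PU.1 and was chosen after its values were seen, had 10.96, 11.00 and 11.11 on the floxed arrays, against 11.39, 10.83 and 10.72 on the controls. Its floxed arrays lay within the control range, and control replicate 3 was again the lowest.

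Of 15 exchange factors, GTPase-activating proteins and inhibitors of Rac, 14 were tested, with 7 higher and 7 lower (median 0.00) and none passing. Vav3, a Rac exchange factor, had 9.84, 9.75 and 9.53 on the floxed arrays, against 9.44, 9.39 and 9.29 on the controls (a log2 difference of 0.33, SE 0.14, with an adjusted p of 0.999 in limma). Vav1 had 0.22, and Dock2, the main Rac activator of migrating lymphocytes, had −0.16. Of 12 kinases and signal proteins upstream of the oxidase, 11 were tested, with 9 higher and 2 lower (median 0.09) and none passing. Pik3cg (0.25), Akt1 (0.18) and Prkcd (0.17), whose product phosphorylates Ncf1, had the smallest p.

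Of 10 listed partners and alternative subunits, 8 were tested, with 3 higher and 5 lower (median −0.02) and none passing. Rap1a (0.25), Duoxa2 (0.26) and Nox3 (−0.28) had the smallest p, the last 2 on 1 kept probe set each. Duoxa1, the maturation factor of Duox1, had −0.03 on 1 of 11 probe sets. The Duoxa2 arrays were at 7.78, 7.83 and 7.95 in floxed arrays and 7.64, 7.67 and 7.47 in controls.

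Among facts of the whole series, array medians lay between 7.56 and 7.65 log2. Of the 16 kept probe sets of Ctnnb1, the targeted gene, 5 passed in limma, with log2 fold changes of −6.90 to −2.51 (largest adjusted p = 0.00137). These were the 5 probe sets of 120788 that passed. No probe set of an oxidase gene was among them.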

How the data were processed

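RNA from 3 floxed and 3 control samples was labelled from 100 ng and hybridised to 1-colour arrays, per the labels' protocols. The authors deposited log2 expression values for 241576 probe sets, from 2.44 to 14.53; the base was taken from the values. MAS5 is named in the submitters' processing notes without a role or version. The normalization is not given in the sources used here, and none was added. Symbols from the platform annotation were updated through RefSeq names (2742 of 20416).

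Probe sets at or above the median mean (7.60) were kept, 120788 in all. A gene's value was the median of its kept probe sets with 1 gene (110361), giving 14586 genes. Groups were compared, two-sided, with limma 3.58.1 in R 4.3.3 (lmFit, eBayes with trend, Benjamini-Hochberg over all genes, threshold 0.05), for genes and for probe sets, and with diffSplice. The R package data.table, version 1.17.8, was used for reading, and the gene fit was checked on simulated data. The number of arrays limits the precision.

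The 9 genes and the 10 lists were chosen with earlier results of these data known. Named were the 9 genes, their probe sets with unadjusted p under 0.05, the 3 genes of smallest p of each pathway list, the brightest and the smallest-p gene of each marker list, and the 3 nearest profiles to the member of largest SD and of smallest p; Duoxa1, Prex2 and Spi1 fall outside this rule and were picked with their values in view. Alternatives were 2 other normalizations, filters at the 75th percentile or none, a gene value from the mean of probe sets, robust eBayes, eBayes without trend, arrays weighted by limma, a block for the replicate number, and leaving out each array.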

Additional observations from a re-analysis of the deposited data

How the results depend on the processing

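No oxidase gene and no oxidase probe set passed under any of the 15 alternatives for genes or the 14 for probe sets, and the smallest limma adjusted p of a member was 0.111 (Rac1, array weights). Of 133 values of single members, 115 kept their sign and 18 turned. Without single arrays Cybb ran from −0.83 to 0.093, Ncf1 from −0.24 to 0.22, Nox4 from −0.26 to 0.075, Duox1 from −0.54 to −0.26 (without control replicate 3 and without floxed replicate 1 alike), Duox2 from −0.35 to 0.0013, Ncf4 from −0.16 to −0.016 and Rac1 from 0.055 to 0.22. Ncf1 was −0.013 with quantile normalization, −0.0077 with equal array medians, −0.044 with the 75th percentile filter, −0.11 as the mean of its probe sets and −0.27 with array weights. Ncf4 was 0.10 with the 75th percentile filter, Rac1 −0.013 with no filter and −0.00085 as the mean of its probe sets, and Nox4 0.23 with array weights. Nox4 and Duox1 had no value under the 75th percentile filter, which left none of their probe sets. Array weights moved the median over the members to −0.23, and without single arrays it lay between −0.16 and 0.040 (the last without control replicate 1).

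Over all genes, 2 passed with no filter, 1 with gene values taken as means and 404 with array weights, which gave control replicate 1 a weight of 0.27 and control replicate 3 a weight of 0.40; 0 to 2 passed without single arrays (2 without control replicate 1). Of the probe sets, 0 passed with the 75th percentile filter, which removed those of Ctnnb1 that had passed. With array weights Cybb was at −0.70 (limma adjusted p = 0.133). The causes were otherwise not tested. Correlations of same-numbered deviations were 0.20, −0.0036 and −0.24. With 3 arrays per group, these cannot decide whether the replicate numbers pair the samples. With the replicate block 0 genes passed and 5 probe sets did. Without detection calls the signal over background of the dimmer probe sets is unknown.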
